A study of Mus musculus with 9 samples.

Results

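The 10 genes described here encode proteins that mouse sperm carry on their surface to meet the egg, and the chaperones that fold them. They were chosen by name from the table of counts: Izumo1 and Spaca6 for fusion with the egg, Adam1a, Adam1b, Adam2, Adam3 and Adam5 for the ADAM family, and Calr3, Clgn and Pdilt for the chaperones. All 10 were found among the 55414 genes listed, and all 10 passed the filter that left 25128 genes for testing. RNA came from round spermatids (RS), the haploid cells that follow meiosis, sorted from testes of adult mice in which Stra8-iCre switches on a tdTomato reporter on a C57Bl/6 background. Stra8-iCre is active in germ cells from the spermatogonial stage on, and the labels give the genotype of all libraries as WT. Culture lasted 24 h. The vehicle group received 0.15% DMSO, and the oxamate group 24 mM of oxamate, which blocks lactate dehydrogenase. The third group received this dose of oxamate together with octyl-L2HG at 0.3 mM, an ester through which L-2-hydroxyglutarate can enter cells. All groups shared the genotype, the culture medium and the concentration of DMSO, and each group had 3 libraries. Libraries 1 to 3 are those of vehicle, 4 to 6 those of oxamate alone, and 7 to 9 those of both compounds. The labels do not say that the libraries came from separate animals, so p-values measure the spread between these libraries, which may be technical.

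IZUMO1 is the sperm membrane protein that binds the egg receptor JUNO, and SPACA6 is a sperm membrane protein that fusion also needs. ADAM1 and ADAM2 pair to form fertilin, and ADAM3 is the surface protein most closely tied to the passage of mouse sperm into the oviduct and to their binding to the egg coat. These proteins are made in the endoplasmic reticulum of meiotic and haploid germ cells, where the testis-specific calmegin (Clgn), calsperin (Calr3) and the disulfide isomerase homolog PDILT take part in their folding. Male mice without Clgn, Calr3 or Pdilt lack mature ADAM3 on sperm and are infertile.

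The total count was 36623116 to 39888396 per vehicle library, 32434700 to 37799549 with oxamate alone and 32339533 to 39445771 with both compounds. Oxamate library 4 stood apart from the other oxamate libraries, the chi-square of its counts per degree of freedom being 18.7 and 23.3 against libraries 5 and 6, which differed from each other by 2.098. Vehicle library 1 differed from libraries 2 and 3 by 11.9 and 11.3, and these from each other by 6.48, while libraries 7 to 9 differed by 2.43 to 7.10. All 8 round spermatid markers were expressed, and their summed normalized count was 64067 to 65414 with vehicle, 60690 to 62887 with oxamate alone and 57318 to 58948 with both compounds, so that no group overlapped another. Of these 8, Prm1, Tnp1 and Tnp2, which package the DNA of later spermatids, fell with oxamate. These 3 genes and Tssk6 fell with both compounds against vehicle, by 0.56 to 1.00 on the log2 scale, while the acrosomal gene Acrv1 rose by 0.25. The 6 spermatocyte markers summed to 9174 to 11421 with vehicle, 8872 to 9874 with oxamate and 10453 to 10749 with both, and of these Sycp2 alone passed the test, as higher with both compounds than with oxamate. The 5 spermatogonium markers summed to 191 to 211 with vehicle, 237 to 249.4 with oxamate and 224 to 237 with both, and none passed. Gfra1 alone made up most of each sum, with means of 127, 163 and 153 in the same order. Markers of somatic cells were low against these levels: Sertoli markers summed to 2.29 to 6.81 per library, Leydig markers to 19.9 to 40.4, peritubular myoid markers to 80.8 to 110.4 and macrophage and blood markers to 115 to 162, and none passed the test. Gata4, Cldn11, Insl3, Hsd3b1, Hbb-bs and Hba-a1 had fewer than 10 counts in all libraries together. In bulk RNA, fewer cells of a stage and less RNA per cell cannot be told apart, and the part of the shift in round spermatid markers in the members' differences was not tested.

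Promoter sequences of 250 bases before a transcription start were found in RefSeq (GRCm38.p6) for 6 of the 10 genes: Izumo1, Spaca6, Adam1a, Adam1b, Calr3 and Pdilt. The promoters of 4 are shown because their RNAs behaved differently: Calr3 and Spaca6 were lower with both compounds than with vehicle, Adam1b was higher, and Izumo1 passed in no comparison. Capitals mark matches on either strand to the cAMP response element TGACGTCA, its core TGACG, the X-box core GTTGCC, the TATA box TATAAA and the CCAAT box. All are written 5′ to 3′ on the strand of the gene, at chr7:45621561-45621810 (+) for Izumo1, chr17:17830725-17830974 (+) for Spaca6, chr5:121503436-121503685 (-) for Adam1b and chr8:72443779-72444028 (-) for the first of 2 starts of Calr3.
Izumo1: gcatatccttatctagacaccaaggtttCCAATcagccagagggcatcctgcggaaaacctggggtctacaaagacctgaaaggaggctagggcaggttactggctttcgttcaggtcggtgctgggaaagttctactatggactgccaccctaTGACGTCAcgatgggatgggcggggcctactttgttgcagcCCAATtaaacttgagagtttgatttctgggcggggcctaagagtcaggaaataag
Spaca6: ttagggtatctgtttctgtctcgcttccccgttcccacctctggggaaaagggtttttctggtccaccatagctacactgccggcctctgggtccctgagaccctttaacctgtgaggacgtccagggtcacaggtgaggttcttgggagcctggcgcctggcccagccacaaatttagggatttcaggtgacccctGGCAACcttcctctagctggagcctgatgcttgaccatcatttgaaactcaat
Adam1b: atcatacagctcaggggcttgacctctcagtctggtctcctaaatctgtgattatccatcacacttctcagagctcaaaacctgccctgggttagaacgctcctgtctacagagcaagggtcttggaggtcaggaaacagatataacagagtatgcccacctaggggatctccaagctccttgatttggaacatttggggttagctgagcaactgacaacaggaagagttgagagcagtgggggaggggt
Calr3: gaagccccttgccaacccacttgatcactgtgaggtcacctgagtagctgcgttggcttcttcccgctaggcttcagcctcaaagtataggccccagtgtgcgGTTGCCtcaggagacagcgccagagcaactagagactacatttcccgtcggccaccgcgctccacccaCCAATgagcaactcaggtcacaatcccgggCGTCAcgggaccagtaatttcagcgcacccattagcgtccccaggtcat
The Izumo1 promoter held the full TGACGTCA from 96 to 89 bases before the start, a sequence that 1.55% of the 32851 RefSeq promoters hold within 250 bases, and it counts as a TGACG match on each strand. CREM, the activator of many haploid genes, binds this element. The Calr3 promoter held TGACG on the opposite strand 49 to 45 bases before the start and GTTGCC 147 to 142 bases before it, against 17.8% and 10.4% of all promoters. GTTGCC, which is part of the X-box that RFX factors bind, lay on the opposite strand 53 to 48 bases before the start of Spaca6. CCAAT was found in Izumo1, Calr3, Adam1a and Pdilt and in 33.8% of all promoters, TATAAA in none of the 6 genes and in 12.4% of all promoters. Adam1b held none of the 5 motifs in this window.

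With vehicle, the levels of the 10 genes spanned a wide range per kb of transcript. Adam3 was first with 39181 ± 1996 normalized counts per kb (SD, n = 3), rank 39 of 25027 genes with a known length, and Adam5 second with 29479 ± 1589. Adam3 and Adam5 are neighbours on chromosome 8, read on the same strand with 1240 bases and no gene between them. Clgn followed with 11193 ± 735, Adam2 with 8492 ± 144 and Pdilt with 4962 ± 402. These 5 genes kept apart from each other in every vehicle library, though with the longest annotated transcripts Adam3 (26447) and Adam5 (25518) came close to each other. Izumo1 (2930 ± 93.6) and Adam1b (2829 ± 129) overlapped, at 2842 to 3028 and 2740 to 2977. The lowest 3 were Spaca6 (1741 ± 245), Adam1a (1224 ± 81.3) and Calr3 (1157 ± 60.1), of which Adam1a and Calr3 overlapped. The place of Spaca6 depended on the length used: with the longest annotated transcript in place of the median length, its level was 769 per kb and it came last. With only the single-exon transcript, since the other transcript of Adam1a reads through from Mapkapk5, Adam1a had 1450 per kb and kept its place; this length was chosen after the data were seen.

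**Figure D1:**
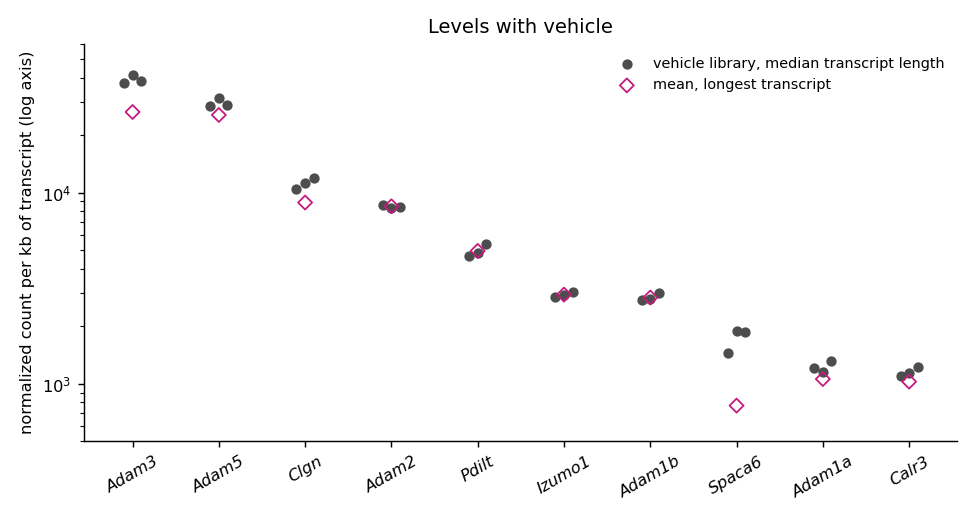
Normalized counts per kb of transcript on a log axis for the 10 genes in the 3 vehicle libraries (points, median transcript length) with the mean for the longest transcript (diamonds). Adam3 and Adam5 stand above the other genes, and the diamond of Spaca6 falls below those of Adam1a and Calr3.

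Some of these counts are less certain than others. In the annotation (GENCODE M21), 30.9% of the 50-base stretches of the Adam1a transcript also occur in Adam1b, and 32.4% of those of Adam1b in Adam1a, so the counting could have split or dropped reads between them. Adam1a also shares 20.9% of these stretches, and 63.7% of its exon bases, with the read-through gene Gm42878 on the same strand, which had 0 to 4 counts per library. On the opposite strand Tmem116, with 701 to 1104 counts, covers 11.3% of the exon bases of Adam1a. Exons of Izumo1 overlap those of Rasip1 on the same strand over 21.9% of their length, and Rasip1 had 49 to 116 counts per library. Low counts of Gm42878 or Rasip1 do not show that few reads were lost, since reads on shared bases may have been counted for neither gene. Adam3 and Pdilt overlap antisense genes as well, Gm45528 with 18 to 39 counts and Gm37518 with 1 to 10. Acsm5 also lies opposite Pdilt, over 4.56% of its exon bases, and the counts of Acsm5 were not looked up. The strand setting of the counting is not given, so reads of these pairs cannot be told apart.

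Oxamate alone moved none of the 10 genes past the threshold of an adjusted p under 0.05 in the quasi-likelihood test of edgeR, adjusted by Benjamini-Hochberg over all genes tested, where 3.97% of genes rose and 1.22% fell. These shares moved with single libraries: 997 genes rose and 306 fell, but 1583 and 705 without oxamate library 4 and 538 and 121 without vehicle library 2, and 189 fell without vehicle library 3. At an unadjusted p under 0.05 there were 4, Adam1a, Adam3, Adam5 and Calr3, where 17.3% of all genes and 25.2% of those with a mean normalized count of 500 or more had such a p, and DESeq2 at an adjusted p under 0.05 also called 0. In these 4, and in no other of the 10, the oxamate libraries lay wholly above (Adam1a) or below (Adam3, Adam5, Calr3) the vehicle libraries. Over all genes tested, 21.4% had no overlap between these groups. The median log2 fold change was -0.02 over the 10 genes and -0.01 over all genes tested. Without oxamate library 4, Pdilt passed, with a log2 fold change of 0.20 and an adjusted p of 0.0296 (edgeR).

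Octyl-L2HG on top of oxamate gave higher levels of Clgn, Adam3, Adam5 and Adam2 than oxamate alone: 4 of the 10 genes rose, where 3.18% of all genes rose, and 0 fell, where 8.06% of all genes fell. At an unadjusted p under 0.05 there were 6, with Adam1b among the higher and Calr3 among the lower, where 23.6% of all genes had such a p, and DESeq2 called 5 higher, Adam1b included, and 0 lower. Of 6601 well expressed genes, those whose normalized count averaged 500 or more, 20.8% were called in either direction and 39.0% had an unadjusted p under 0.05, so these well expressed genes are called more often than genes at large. By direction, 9.70% of them rose and 11.1% fell. The median log2 fold change was 0.10 over the 10 genes, -0.04 over all genes and 0.03 over the well expressed ones. Over all genes, the 798 that rose became 1429 with no filter and 1575 without oxamate library 4. With scaling by library totals 2 of the 10 rose and 1, Calr3, fell. Without library 5 the number that rose was 2, without library 8 or 9 it was 1, and without library 4 the number that fell was 2, Calr3 and Spaca6.

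Against vehicle, both compounds together gave higher levels of Clgn, Adam2 and Adam1b and lower levels of Calr3 and Spaca6. That is 3 of 10 higher, where 7.48% of all genes rose, and 2 of 10 lower, where 10.6% fell. Among the well expressed genes, which include all 10, 19.5% rose and 10.6% fell, and 30.1% were called in either direction. The median log2 fold change was 0.08 over the 10 genes, -0.05 over all genes and 0.06 over the well expressed ones. In the test of any difference among the 3 groups 7 of the 10 passed, all but Izumo1, Adam1a and Pdilt. Of all genes 19.8% did, and the share of the well expressed genes was not taken for this test. These counts of members were smaller in other settings. Only 1 rose against vehicle with library totals, with offsets for transcript length, or without library 1, 2, 5, 8 or 9, and only 1 fell with the offsets or without library 2, 3 or 7. In the test of any difference 4 passed with library totals, with the offsets, or without library 2, 5 or 7, and 2 passed without library 8 or 9. The 3 comparisons share their libraries and are not independent. With scaling by library totals, which moved the median of all genes to -0.11 against vehicle, 421 genes rose and 2516 fell against oxamate in place of 798 and 2025, and 1231 rose and 3367 fell against vehicle in place of 1879 and 2655.

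**Figure D2:**
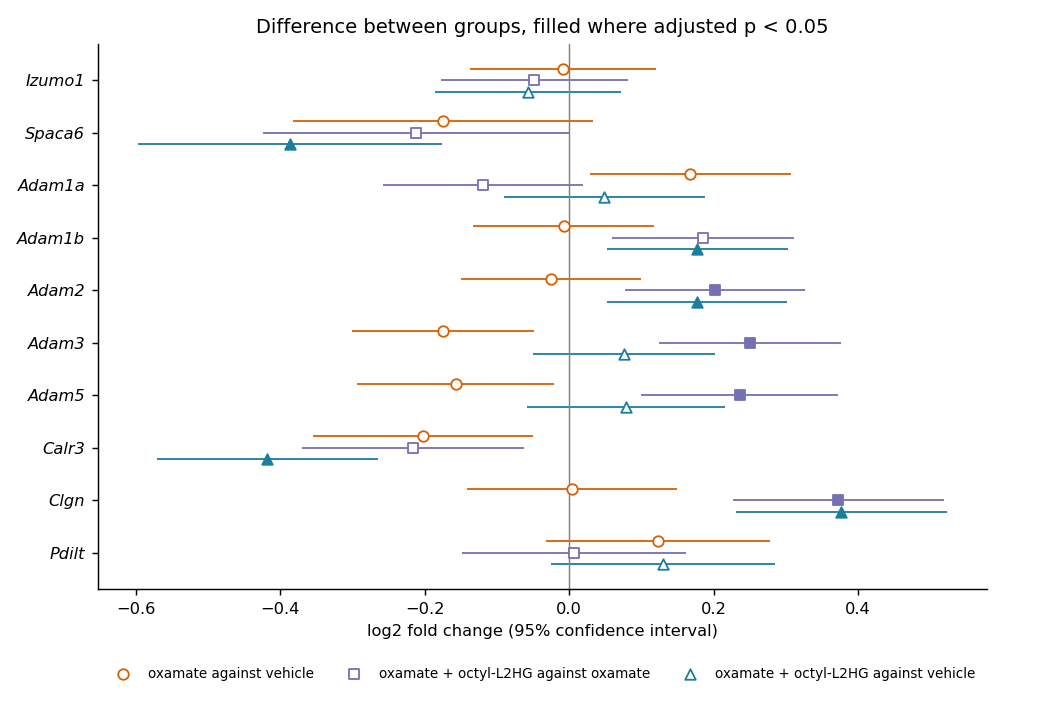
Log2 fold changes of the 10 genes from edgeR (points) with 95% confidence intervals (lines) for oxamate against vehicle (circles), both compounds against oxamate (squares) and both compounds against vehicle (triangles), filled where the adjusted p was under 0.05. Clgn lies to the right of 0 and Calr3 to the left of it in the comparison of both compounds with vehicle, and no circle is filled.

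Of the fusion genes, Izumo1 (ENSMUSG00000064158) passed in no comparison. Its normalized counts were 4244, 4357 and 4521 with vehicle, 4289, 4447 and 4309 with oxamate alone and 4208, 4114 and 4291 with both compounds. The groups overlapped in each comparison. The log2 fold change was -0.01 (95% interval -0.14 to 0.12) for oxamate against vehicle and -0.06 (-0.19 to 0.07) for both compounds against vehicle, so that a change of more than 0.19 in either direction lies outside both intervals. The adjusted p of edgeR was between 0.601 and 0.970 in the 3 comparisons.

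Spaca6 (ENSMUSG00000080316), the gene with the fewest counts of the 10, had 691, 895 and 890 normalized counts with vehicle, 634, 791 and 768 with oxamate alone and 600, 640 and 652 with both compounds. Libraries 7 to 9 were all lower than any vehicle library, while the oxamate libraries overlapped both other groups. Against vehicle Spaca6 was lower with both compounds by 0.39 on the log2 scale (SE 0.10, edgeR's adjusted p = 0.00942). This call was lost without vehicle library 2 (fell by 0.32, adjusted p = 0.0660), vehicle library 3 (fell by 0.31, 0.0824) or library 7 (fell by 0.35, 0.0654) in the same edgeR test, and with offsets for transcript length (fell by 0.27, 0.0933). Vehicle library 1 was the lowest of its group, and it stood nearer to the libraries with both compounds than to the other vehicle libraries. The difference from oxamate alone was -0.21 (adjusted p = 0.212, edgeR) and passed without oxamate library 4 (-0.30, adjusted p = 0.0133).

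**Figure D3:**
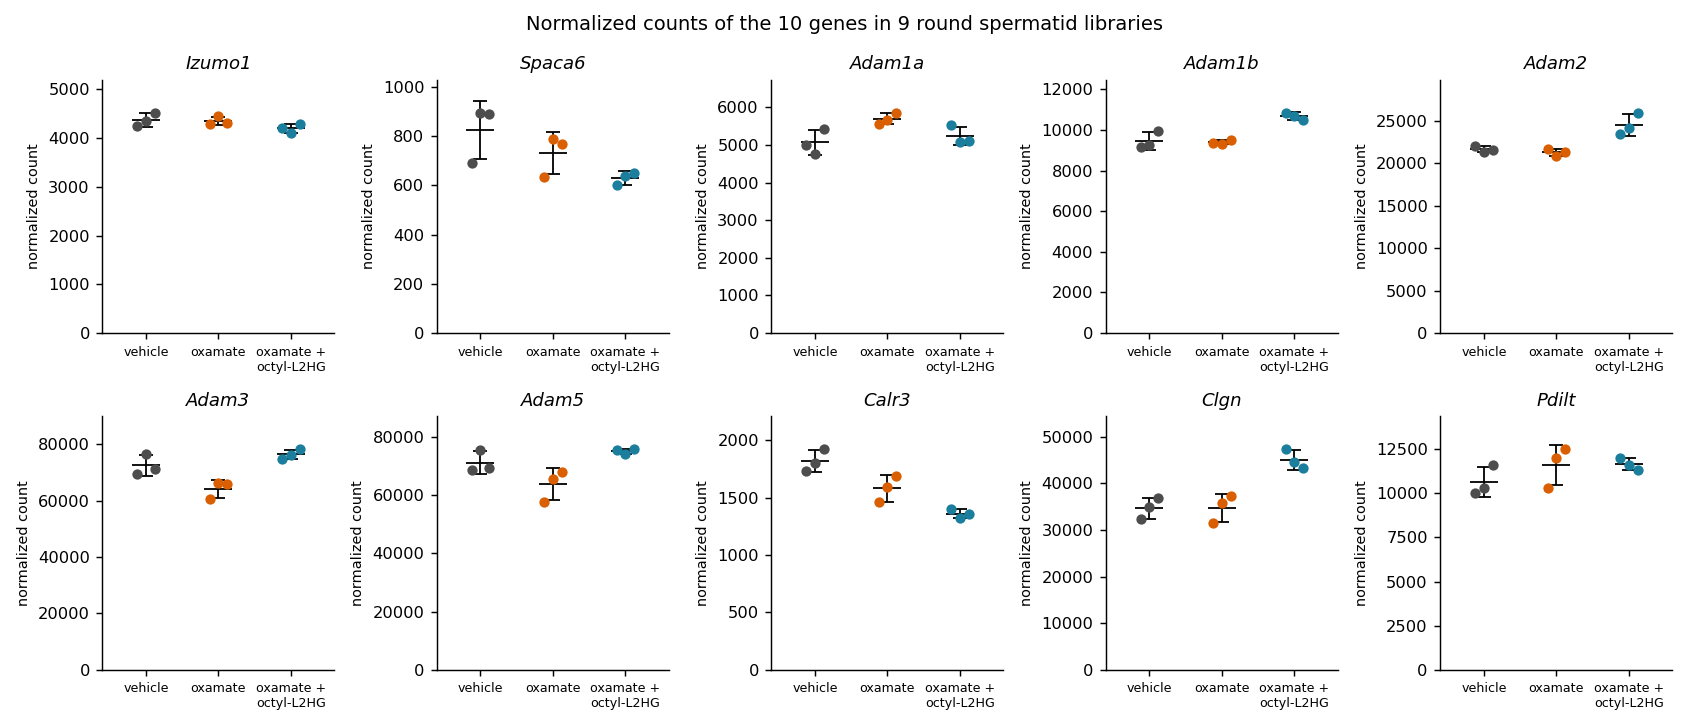
Normalized counts of each gene in the 9 libraries (points), with the mean (bar) and SD (whiskers, n = 3) of each group and all axes starting at 0. Clgn is highest and Calr3 lowest in the libraries with both compounds, with no overlap with either other group, and the groups overlap for Izumo1.

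Among the ADAM genes, Adam3 (ENSMUSG00000031553) and Adam5 (ENSMUSG00000031554) ran together. Adam3 had 69596, 76690 and 71346 normalized counts with vehicle, 60630, 66193 and 65976 with oxamate alone and 74773, 76343 and 78229 with both compounds. All oxamate libraries lay below all others. Adam3 was higher with both compounds than with oxamate by 0.25 on the log2 scale (SE 0.06, 1.19-fold, adjusted p = 0.00977 in edgeR's quasi-likelihood test). The call was lost by a small margin without library 8 (0.25, adjusted p = 0.0516, edgeR) or library 9 (0.23, 0.0529). Against vehicle, oxamate gave -0.17 (adjusted p = 0.111) and both compounds gave 0.08 (0.449), and neither passed edgeR's test.

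Adam5 had 68553, 75621 and 69492 normalized counts with vehicle, 57759, 65725 and 68085 with oxamate alone and 75622, 74223 and 75755 with both compounds. The oxamate libraries were again below all others, library 4 most of all. The rise with both compounds over oxamate was 0.24 (SE 0.07, adjusted p = 0.0228, edgeR), and the call was lost without oxamate library 5 (0.26, adjusted p = 0.0564), library 7 (0.23, 0.0855), library 8 (0.25, 0.0785) or library 9 (0.23, 0.0830). Scaling by library totals also lost it (0.19, adjusted p = 0.0771, edgeR). The ratio of Adam3 to Adam5 counts stayed between 0.969 and 1.05 in all 9 libraries, and its group means were 1.02 with vehicle, 1.01 with oxamate alone and 1.02 with both compounds.

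Adam2 (ENSMUSG00000022039), which encodes the beta subunit of fertilin, had 22059, 21335 and 21597 normalized counts with vehicle, 21672, 20856 and 21331 with oxamate alone and 23415, 24119 and 25926 with both compounds. Vehicle and oxamate overlapped, and the libraries with both compounds were above all of them. The log2 fold change was 0.20 (SE 0.06) against oxamate and 0.18 (SE 0.06) against vehicle, with adjusted p = 0.0324 and 0.0447 in edgeR's test. These calls sat close to the threshold. The first was lost without library 5 (0.19, adjusted p = 0.139, edgeR), 6 (0.20, 0.0718), 8 (0.21, 0.0979) or 9 (0.16, 0.165), with scaling by library totals (0.16, 0.0914) and with offsets for transcript length (0.18, 0.0510). The second was lost without library 1 (0.19, adjusted p = 0.0643, edgeR), 2 (0.17, 0.117), 3 (0.19, 0.0705), 5 (0.18, 0.0626), 8 (0.19, 0.106) or 9 (0.13, 0.200), with library totals (0.11, 0.201) and with offsets for transcript length (0.10, 0.267).

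Adam1b (ENSMUSG00000062438) and Adam1a (ENSMUSG00000072647) are paralogs that encode forms of ADAM1, the partner of ADAM2 in fertilin. They share part of their sequence and lie 15140 bases apart on chromosome 5, with another gene between them. Adam1b had 9148, 9243 and 9938 normalized counts with vehicle, 9332, 9330 and 9511 with oxamate alone and 10844, 10708 and 10486 with both compounds, the last above all the others. Adam1a had 5007, 4766 and 5431 with vehicle, 5559, 5668 and 5855 with oxamate alone and 5519, 5088 and 5117 with both compounds, so that its highest libraries were those with oxamate alone. For Adam1b the log2 fold change with both compounds was 0.18 against vehicle (SE 0.06, adjusted p = 0.0452) and 0.19 against oxamate (SE 0.06, adjusted p = 0.0512) in edgeR's test. The first was lost without library 1 (0.16, adjusted p = 0.139, edgeR), 2 (0.16, 0.128), 5 (0.18, 0.0651), 7 (0.17, 0.134), 8 (0.18, 0.138) or 9 (0.19, 0.0785), with library totals (0.11, 0.201) and with offsets for transcript length (0.08, 0.434). The second passed without library 1 (0.19, adjusted p = 0.0494, edgeR), 3 (0.21, 0.0301) or 4 (0.18, 0.0241). It also passed with the size factors of DESeq2 (0.21, adjusted p = 0.0309, edgeR), with no filter (0.23, 0.0193), with filterByExpr (0.20, 0.0235), with only the groups compared (0.21, 0.0371) and with DESeq2 as the test (0.21, 0.0130). For Adam1a the differences were 0.17 for oxamate against vehicle (adjusted p = 0.178), -0.12 for both compounds against oxamate (0.299) and 0.05 against vehicle (0.690), and none passed edgeR's test. Since these genes share sequence, values of either one may hold reads of the other.

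The chaperones moved in different directions. Clgn (ENSMUSG00000002190), a membrane-bound lectin chaperone of the calnexin family, had 32244, 35003 and 36761 normalized counts with vehicle, 31408, 35709 and 37195 with oxamate alone and 47265, 44549 and 43241 with both compounds. Every library with both compounds exceeded every other library. The means ± SD were 34669 ± 2277 with vehicle, 34771 ± 3005 with oxamate alone and 45018 ± 2052 with both compounds (n = 3 each). Clgn was 1.29-fold higher with both compounds than with oxamate (log2 fold change 0.37, SE 0.07, adjusted p = 0.00139) and 1.298-fold higher than with vehicle (0.38, SE 0.07, adjusted p = 0.000553) in edgeR's test. Both calls remained in each of the 9 fits that left out a library and in each of the 7 other settings, with log2 fold changes of 0.30 to 0.42 against oxamate and 0.28 to 0.44 against vehicle. Of the 6601 well expressed genes, 73 had a higher log2 fold change against oxamate and 375 had a higher one against vehicle. The difference between oxamate and vehicle was 0.0042, with an interval from -0.14 to 0.15, and its sign changed with the setting.

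Calr3 (ENSMUSG00000019732), a soluble calreticulin homolog, went the other way. It had 1734, 1797 and 1919 normalized counts with vehicle, 1461, 1590 and 1687 with oxamate alone and 1399, 1325 and 1353 with both compounds. The groups formed 3 steps with no overlap, vehicle above oxamate and oxamate above both compounds. The means ± SD were 1817 ± 94.3, 1579 ± 114 and 1359 ± 37.1 (n = 3 each). Against vehicle Calr3 was lower with both compounds by 0.42 on the log2 scale (SE 0.07, 0.748-fold, adjusted p = 0.000321 in edgeR's test). This call remained in all 9 fits without a library and in the 7 other settings, at -0.48 to -0.36. Neither single step passed edgeR's test: oxamate against vehicle gave -0.20 (adjusted p = 0.128) and both compounds against oxamate gave -0.22 (adjusted p = 0.0643). The second step passed without oxamate library 4 (-0.27, adjusted p = 0.00403, edgeR) and with library totals (-0.26, 0.0247).

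Pdilt (ENSMUSG00000030968), a disulfide isomerase homolog of the testis, had 10000, 10319 and 11629 normalized counts with vehicle, 10308, 11994 and 12487 with oxamate alone and 12006, 11595 and 11349 with both compounds. The groups overlapped in every comparison. The log2 fold changes were 0.12 for oxamate against vehicle (interval -0.03 to 0.28), 0.0068 for both compounds against oxamate (-0.15 to 0.16) and 0.13 for both against vehicle (-0.03 to 0.28), with an adjusted p from 0.260 to 0.979 in edgeR's test. The first passed without oxamate library 4 (0.20, adjusted p = 0.0296, edgeR).

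Ratios of counts within a library do not depend on the scaling. Clgn had 18.6 to 19.5 counts for each count of Calr3 with vehicle, 21.5 to 22.5 with oxamate alone and 31.95 to 33.8 with both compounds. The mean ratio with both compounds was 1.74 times that with vehicle, and no group overlapped another. Adam1b had 1.83 to 1.94 counts for each count of Adam1a with vehicle, 1.62 to 1.68 with oxamate alone and 1.96 to 2.105 with both compounds, again without overlap. Clgn over Pdilt was 3.16 to 3.39, 2.98 to 3.05 and 3.81 to 3.94 in the same order. The ratio of Izumo1 to Spaca6 rose from a mean of 5.36 with vehicle to 6.67 with both compounds, but the oxamate libraries, with a mean of 5.999, overlapped both. In an exact two-sided permutation test of 3 against 3 libraries each pair of groups without overlap gave p = 0.1, the smallest this design allows, and 0.15 after adjustment over the 15 comparisons, so that none could reach 0.05.

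**Figure D4:**
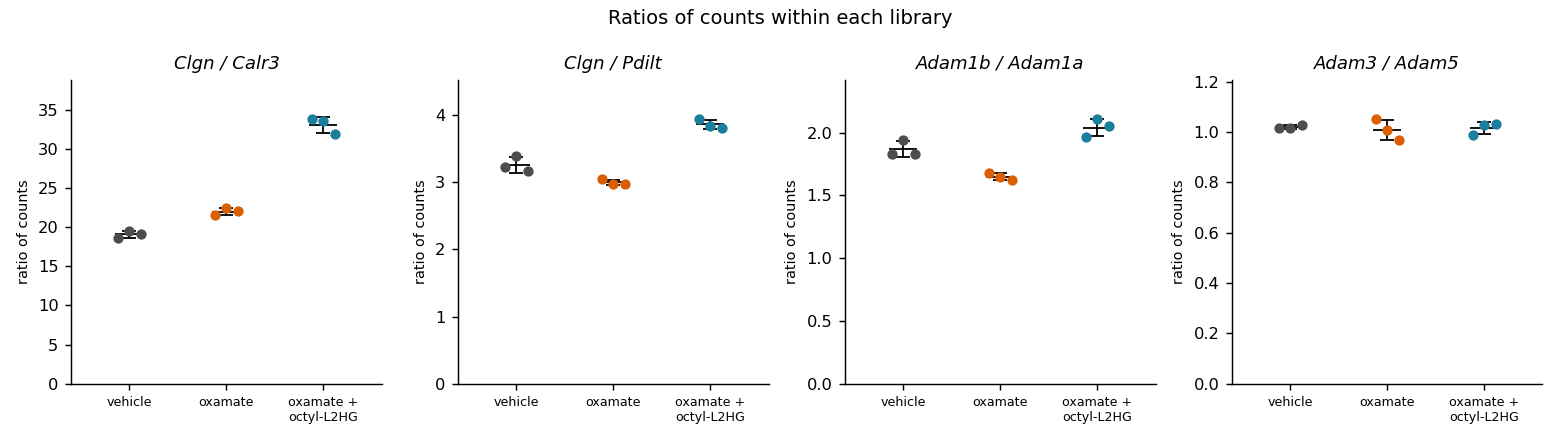
Ratios of the counts of 2 genes within each library (points), with the mean (bar) and SD (whiskers, n = 3) of each group and axes starting at 0. The ratio of Clgn to Calr3 is 18.6 to 22.5 without octyl-L2HG and 31.95 to 33.8 with it, while the ratio of Adam3 to Adam5 stays near 1.

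The general chaperones of the endoplasmic reticulum, which work in all cells, were set beside these. With both compounds against vehicle, 8 of 11 rose and 1 fell, with a median log2 fold change of 0.24, where the median was -0.05 over all genes and 0.06 over the well expressed ones. In that comparison 7.48% of all genes rose and 10.6% fell, and of the well expressed genes 19.5% rose and 10.6% fell, shares that the other lists can be read against in that comparison too. The nearest relatives of the members were among the 8: calreticulin (Calr, 0.34, edgeR's adjusted p = 0.000477), calnexin (Canx, 0.35, 0.000748), the isomerase Pdia3 (0.24, 0.00642) and protein disulfide isomerase (P4hb, 0.61, 0.000120). Calr, the relative of Calr3, thus rose in this comparison where Calr3 fell, and Canx and its relative Clgn both rose. The single steps of Canx and Clgn differed. Canx gave 0.20 with oxamate alone (adjusted p = 0.103, edgeR) and 0.15 for both compounds against oxamate (0.160), and neither passed. Clgn gave 0.0042 and 0.37, of which the second passed. The gene that fell was Ero1a, an oxidase that recharges disulfide isomerases (-0.61, adjusted p = 0.00399, edgeR). Against oxamate 3 rose, among them Hsp90b1 (0.37, adjusted p = 0.00169, edgeR) and Calr (0.23, 0.0183), and 2 fell, Pdia4 (-0.48, 0.000722) and Uggt1 (-0.47, 0.0257). Of all genes 3.18% rose and 8.06% fell against oxamate, and of the well expressed ones 9.70% and 11.1%. With oxamate against vehicle 2 rose, Pdia4 (0.75, adjusted p = 1.08e-05, edgeR) and P4hb (0.53, 0.00191), where 3.97% of all genes and 8.91% of the well expressed ones rose. With scaling by library totals, 5 rather than 8 rose against vehicle.

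Of 20 other genes for fusion and egg coat binding, 19 had a row and all 19 were tested. Against vehicle 2 rose and 4 fell with both compounds, with a median log2 fold change of 0.01. The genes that fell were Tmem81, which takes part with IZUMO1 and SPACA6 in a complex on the sperm surface (-0.87, edgeR's adjusted p = 1.15e-06), Fimp, a fusion factor of the sperm membrane (-0.65, 4.50e-06), Cd46 (-0.60, 0.00310) and Spaca4, which acts in egg coat binding (-0.45, 0.00129). Those that rose were Zpbp2, an acrosomal protein (0.37, adjusted p = 0.000130, edgeR), and Zan, zonadhesin (0.24, 0.0401). Against oxamate 3 rose and 4 fell, where 3.18% of all genes rose and 8.06% fell, and 9.70% and 11.1% of the well expressed ones. The 3 were Crisp2 (0.27, adjusted p = 0.0326, edgeR), Zpbp2 (0.25, 0.00833) and Spesp1 (0.23, 0.0229), and the 4 were Tmem81 (-0.74, 2.33e-05), Fimp (-0.57, 6.48e-05), Tmem95, a fusion factor (-0.44, 0.000681), and Spaca4 (-0.39, 0.00705). With oxamate alone Zan (0.45, adjusted p = 0.00123, edgeR) and Tmem95 (0.31, 0.0169) rose and none fell, where 8.91% of the well expressed genes rose and 0.894% fell, so that 2 of 19 is near that share. The paralogs Izumo2, Izumo3 and Izumo4 had log2 fold changes of -0.06 to 0.10 in the 3 comparisons, and none passed.

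All 15 other testis ADAM genes were tested, and none passed with oxamate against vehicle. With octyl-L2HG they moved in both directions. Adam32 (0.26, adjusted p = 0.0116, edgeR) and Adam18 (0.21, 0.0400) rose against oxamate, as Adam2, Adam3 and Adam5 did. Adam4 (-0.28, adjusted p = 0.0213, edgeR), Adam6b (-0.28, 0.0150) and Adam6a (-0.25, 0.0237) fell against oxamate and also against vehicle, by 0.24 to 0.29. Adam6a and Adam6b are close copies of each other, so their reads may have been split. Against vehicle Adam18 alone rose (0.19, adjusted p = 0.0474, edgeR), and with scaling by library totals none did. The median log2 fold change of the 15 was 0.06, -0.04 and 0.09 in the 3 comparisons.

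Genes that act on ADAM3 after its folding, or on the passage of sperm into the oviduct, numbered 11, all tested. With both compounds against vehicle 4 fell and 1 rose, with a median of -0.10. The falls were in Prss37, a serine protease homolog (-0.80, edgeR's adjusted p = 3.94e-07), Prss55, a serine protease (-0.64, 3.99e-06), Pgap1, which trims GPI anchors (-0.44, 0.00670), and Ace, angiotensin-converting enzyme (-0.28, 0.00154). The same 4 fell against oxamate, by 0.30 to 0.57, while Cmtm2a rose (0.19, adjusted p = 0.0375, edgeR). In that comparison 8.06% of all genes fell and 3.18% rose, and 11.1% and 9.70% of the well expressed ones. These shares hold for the testis ADAM genes against oxamate too. Prss37 had also fallen with oxamate alone (-0.31, adjusted p = 0.0154, edgeR). The gene that rose against vehicle, and with oxamate alone, was Tpst2, a tyrosine sulfotransferase with a mean normalized count of only 26.01, which was named after its values were seen.

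**Figure D5:**
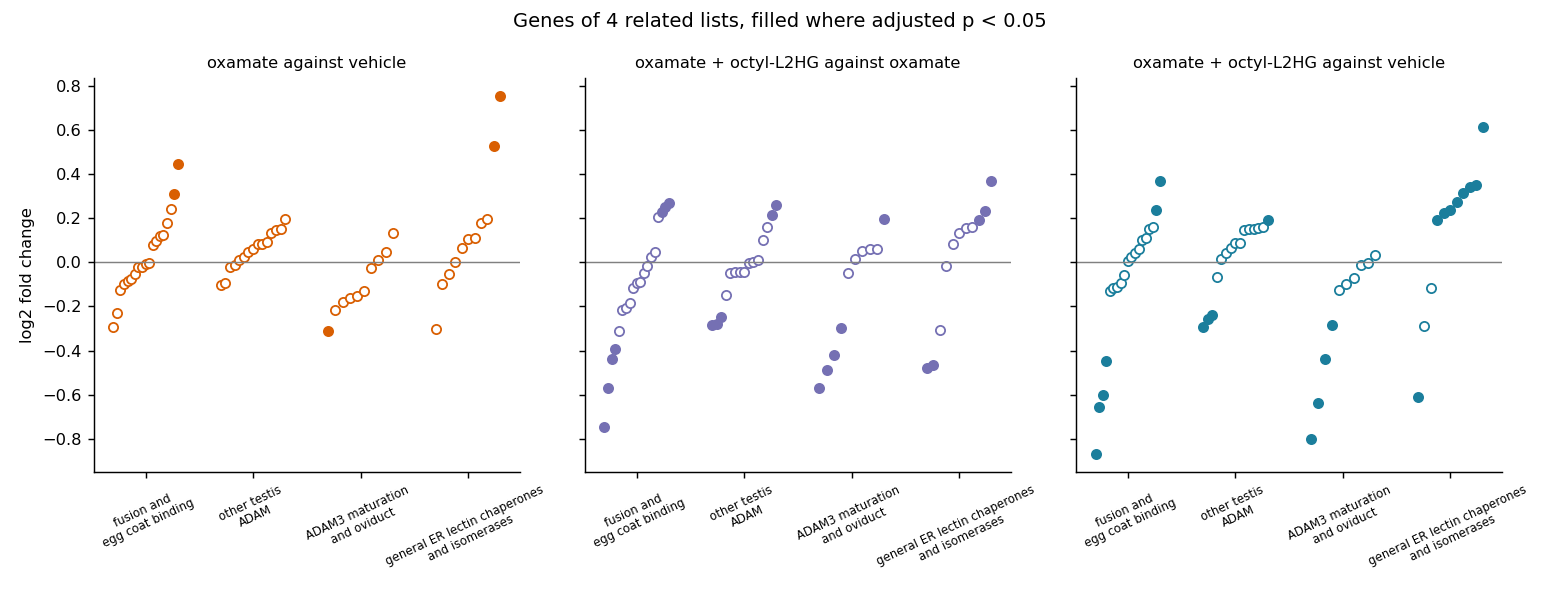
Log2 fold changes of the genes of 4 related lists (normalized counts averaging 100 or more), one panel for each comparison and each list sorted by value, filled where edgeR's adjusted p was under 0.05. In the right panel 8 of the 11 general chaperones are filled above 0, and the filled points of the lists on fusion and ADAM3 maturation lie mostly below it.

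Clgn had the lowest p of the 10 in the test of any difference (adjusted p = 0.000393, edgeR), and the genes with the most similar pattern to it were sought among the 6601 well expressed genes by Pearson's r of log2 normalized counts over the 9 libraries. The first 3 were Lca5l, a relative of a ciliary protein (r = 0.992), Srek1, a splicing regulator (r = 0.989), and Agbl2, a carboxypeptidase acting on tubulin (r = 0.988). The mean of Lca5l was 9132 in the vehicle group, 9370 in the oxamate group and 11742 in the third, so that it shared the step at octyl-L2HG. Of the other members, Adam1b came nearest to Clgn (r = 0.947) and Calr3 was the farthest (r = -0.611). These values describe 9 libraries in 3 groups, and carry no test.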

How the data were processed

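RNA of sorted RS, 3 libraries for each of 3 groups, had been polyA-selected and sequenced by the authors with a stranded kit. Per the labels and the methods, reads were trimmed with cutadapt 2.10, aligned with TopHat2 2.1.1 to GRCm39 with Ensembl annotation and counted with HTSeq 2.01. The authors deposited raw counts of reads per gene, and a normalized signal, which is each count divided by the DESeq2 1.36.0 size factor of its library. Of 55414 genes, 6250 had no counts. The counts were used for all results, and the deposited signal only to check the scaling: the TMM-normalized values were 0.991 to 1.02 times it. Genes with at least 10 counts in sum (25128) were fitted in 1 model of 9 libraries by edgeR 4.0.16 (R 4.3.3) with TMM normalization and a robust quasi-likelihood test, and adjusted by Benjamini-Hochberg over all of them at 0.05. Confidence intervals are 95%. On simulated data for oxamate against vehicle (24577 genes), 99 of 100 genes changed 2-fold and 73 of 100 changed 1.3-fold were recovered, with 8 unchanged genes called.

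The members and gene lists were chosen with earlier results of these data known. List genes were named at a mean normalized count of at least 100 where they passed, up to 4 per list and comparison by size, or as the nearest paralogs of members. Zpbp2, Zan, Crisp2, Spesp1, Adam18, Cmtm2a and Tpst2 fell outside this limit in at least 1 comparison and were named there after their values were seen. Lengths (known for 99.6% of genes tested) and overlaps came from GENCODE M21, on another build, so none of its coordinates is given; promoters are from RefSeq. Alternatives were DESeq2 1.42.0, other scalings and filters, only the groups compared, an adjusted p under 0.01, offsets for transcript length, and each library left out.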

Additional observations from a re-analysis of the deposited data

How the results depend on the processing

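The 30 log2 fold changes of the 10 genes were recomputed in 16 other settings, 480 values in all, of which 420 kept their direction and side of the threshold, 33 lost the call, 12 gained one and 15 changed sign. Those that changed sign were small and not called. With scaling by library totals they were Clgn for oxamate against vehicle (-0.013), Pdilt for both compounds against oxamate (-0.040) and Adam1a for both against vehicle (-0.015), and with transcript length offsets the same 3 (-0.061, -0.013 and -0.071). Clgn for oxamate against vehicle also changed sign with filterByExpr (-0.0012). With libraries left out, the range for oxamate against vehicle was -0.047 to 0.073 for Clgn, -0.030 to 0.012 for Izumo1 and -0.030 to 0.026 for Adam1b, and for Pdilt with both compounds against oxamate it was -0.071 to 0.064.

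Counts of members moved as follows. With library totals 2 rose and 1 fell against oxamate, 1 rose against vehicle and 4 passed the test of any difference. With transcript length offsets 1 rose and 1 fell against vehicle and 4 passed the test of any difference. With an adjusted p under 0.01, 2 rose against oxamate, 1 rose against vehicle and 2 passed the test of any difference. With each library left out in turn, 0 to 1 rose with oxamate against vehicle, 1 to 5 rose and 0 to 2 fell against oxamate, 1 to 3 rose and 1 to 2 fell against vehicle, and 2 to 7 passed the test of any difference. The causes of these moves were not tested.

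Over all genes, the count raised against oxamate ranged from 221 (adjusted p under 0.01) to 1575 (without oxamate library 4), against 798 as reported, and the count raised by oxamate from 506 to 1583, against 997. The count lowered by oxamate ranged from 96 (adjusted p under 0.01) to 705 (without oxamate library 4), against 306. With no filter 1429 genes rose and 1797 fell against oxamate, and with DESeq2 1061 and 1458; against vehicle these were 2690 and 2421, and 1985 and 1915. No paired analysis was possible because the groups share no replicate numbers. At 3 libraries per group, changes of 1.3-fold were recovered less often in the simulation than changes of 2-fold, and the members that did not pass are not shown to be level beyond their intervals.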
